A study of Mus musculus with 30 samples.

Results

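Angiomotin (Amot), its relatives Amotl1 and Amotl2, the co-activators Yap1 and Wwtr1 (TAZ), the DNA-binding partners Tead1 to Tead4 and the kinase Lats2 were followed as mouse pluripotent cells formed endoderm and in endoderm of the embryo. These 10 genes were taken by name from 19938 genes with a probe set of their own, and all 10 were measured. The set was chosen on the day 5 minus day 0 difference in embryonic stem (ES) cells, where Amot had the largest rise of all genes, so the ES values of that difference are a description, with no test, and support nothing. Values are log2 expression on Affymetrix Mouse Gene 1.0 ST arrays, so a difference of 1 is a doubling.

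The cultured cells were ES cells and the induced pluripotent clones ST5 and ST8, all of C57BL/6x129SvJae background. Each clone is a single line. Day 0 cells were sorted as Sox2 bright, and day 5 cells, after endoderm differentiation, as ckit+ and Sox2dim. Differentiation and the change of sort gate cannot be told apart. Embryo cells came from Swiss webster embryos at E8.25: foregut cells sorted as ENDM1+, Epcam+ and low in side scatter, and comparison cells sorted as Epcam+ and ENDM1 negative. Every group held 3 biological replicates. The 18 arrays of ES, ST5 and ST8 cells were labelled without amplification. Another 12 arrays, of amplified RNA, held ES cells at both days and the embryo cells. Levels were compared only within a labelling. Embryo RNA was also extracted with a different kit from that of the cultures.

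In the Hippo pathway, the kinases Stk3 and Stk4 activate Lats1 and Lats2, which phosphorylate Yap1 and Wwtr1 and keep them out of the nucleus. Unphosphorylated Yap1 and Wwtr1 enter the nucleus and drive transcription through the Tead proteins. The angiomotins sit at cell junctions and on actin, bind Yap1 and help to activate the Lats kinases. In the preimplantation embryo the pathway separates inner cells from trophectoderm, where Tead4 acts.

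Array medians ran from 5.50 to 5.57 without amplification and from 5.69 to 5.74 with it. The labels were checked against marker lists: the mean of 8 pluripotency genes was 10.09 to 10.43 on unamplified day 0 arrays and 6.16 to 7.41 at day 5. The mean of 8 definitive endoderm genes was 5.54 to 6.86 at day 0 and 8.18 to 9.58 at day 5. Among day 5 arrays, ES replicate 1 stood apart from the other ES arrays in both labellings, and ST8 replicate 2 from the other ST8 arrays. Results that rest on ST8 replicate 2 are given with and without it. In bulk RNA, fewer cells of a type and less RNA per cell cannot be told apart. P-values are from limma's moderated two-sided test, adjusted by Benjamini-Hochberg over all 19938 genes, and a gene is called below 0.05. Errors beside a difference are standard errors of the fit.

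Because several of the genes encode, or bind, Tead proteins, the 250 bases before annotated starts were read for the Tead recognition letters. RefSeq promoter windows on GRCm38.p6 existed for 8 of the 10 genes (all but Tead1 and Tead4), 12 windows in all. The letters GGAATG, on either strand, occurred in 6 of these windows, belonging to 4 genes: Amotl2, Yap1, Wwtr1 and Tead3. The 2 Wwtr1 windows overlap and hold the same site, which is counted in each. Of all 32851 windows of this length, 12.6% hold them. TGTTTA (FOX factors), AGATAA (the letters of Gata factors) and ACAATG (SOX factors), also on either strand, occurred in 0 of the 12 windows, against 12%, 9.99% and 10.7% of all windows. These matches are descriptions of letters and not of binding. The windows below are shown for Amot, the gene the results turn on, and for 3 genes whose window holds the Tead letters, given in capitals as GGAATG or, on the opposite strand, CATTCC. They run 5′ to 3′ along the gene's strand: Amot at chrX:145487640-145487889 (minus strand), Amotl2 at chr9:102717554-102717803 (plus), Wwtr1 at chr3:57575911-57576160 (minus) and Tead3 at chr17:28350806-28351055 (minus). The starts used for Amot and Amotl2 lie inside the annotated gene.
Amot: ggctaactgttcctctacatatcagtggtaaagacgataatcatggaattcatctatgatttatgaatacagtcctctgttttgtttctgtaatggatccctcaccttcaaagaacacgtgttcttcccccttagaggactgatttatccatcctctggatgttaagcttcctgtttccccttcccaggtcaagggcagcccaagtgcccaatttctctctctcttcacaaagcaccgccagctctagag
Amotl2: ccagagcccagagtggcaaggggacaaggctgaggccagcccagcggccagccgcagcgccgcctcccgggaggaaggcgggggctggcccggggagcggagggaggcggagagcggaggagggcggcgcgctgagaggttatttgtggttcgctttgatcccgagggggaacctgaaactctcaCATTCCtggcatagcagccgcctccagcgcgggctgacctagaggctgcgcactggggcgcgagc
Wwtr1: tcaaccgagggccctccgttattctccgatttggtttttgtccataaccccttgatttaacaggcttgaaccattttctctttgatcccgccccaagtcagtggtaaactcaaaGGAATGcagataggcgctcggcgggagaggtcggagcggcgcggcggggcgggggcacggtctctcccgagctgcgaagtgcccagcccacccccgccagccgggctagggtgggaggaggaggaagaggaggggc
Tead3: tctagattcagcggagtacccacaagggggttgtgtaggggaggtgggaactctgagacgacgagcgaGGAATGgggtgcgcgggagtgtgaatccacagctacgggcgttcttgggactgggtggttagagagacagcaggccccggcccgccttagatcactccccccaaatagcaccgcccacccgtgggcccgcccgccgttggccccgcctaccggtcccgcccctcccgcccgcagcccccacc
The centre of the capitals lies 62 bases before the start in Amotl2, 133 in Wwtr1 and 179 in Tead3. No such letters stand in the Amot window.

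Amot, on chromosome X (X:145446424-145505966, GRCm38.p6), had a low level in ES cells at day 0, with 5.63, 5.71 and 5.94 on the 3 arrays. At day 5 the ES arrays read 11.57, 10.68 and 10.65. The day 5 arrays lay far above the day 0 arrays, and the difference of 5.20 ± 0.28 (36.9-fold) was the largest rise of any gene, which is how Amot was chosen. In ST5 cells Amot read 7.54, 7.18 and 6.59 at day 0. At day 5 the ST5 arrays read 11.58, 11.70 and 11.63. In ST8 cells it read 7.29, 7.70 and 7.58 at day 0 and 10.67, 11.70 and 10.68 at day 5. No day 5 array of either clone came near a day 0 array.

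Both clones, whose arrays are not part of the ES difference that chose the set, showed a called rise. All the genes followed here were chosen with earlier results of these data known, which limits every test on them. Amot rose by 4.53 ± 0.28 in ST5 (23.2-fold, limma adjusted p = 2.37e-09), the 16th largest rise of 19938 genes. It rose by 3.49 ± 0.28 in ST8 (11.3-fold, limma adjusted p = 6.06e-08), the 17th largest. Without ST8 replicate 2 at day 5 the ST8 difference was 3.15 (limma adjusted p = 7.04e-08). At day 5 Amot stood above 99.3% of all genes' probe sets in ST8, and above 99.7% in ST5, as a rank of probe signal.

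The order of the unamplified groups was ES day 0, then ST5 and ST8 at day 0, then ES and ST8 at day 5, and ST5 at day 5. Group means were 5.76 ± 0.16, 7.10 ± 0.48, 7.52 ± 0.21, 10.97 ± 0.52, 11.02 ± 0.59 and 11.64 ± 0.06 in that order (SD, n = 3). ST5 and ST8 overlapped at day 0, and ES and ST8 overlapped at day 5. ST8 and ST5 also overlapped at day 5, as ST8 replicate 2 at 11.70 lay within the ST5 range of 11.58 to 11.70. At day 0 both clones lay above every ES array, by 1.34 ± 0.28 in ST5 and 1.76 ± 0.28 in ST8. These values share the ES arrays that chose the gene and were not tested. The endoderm list mean at day 0 was lowest on the ES arrays (5.54 to 5.72) and higher on those of ST5 (6.18 to 6.86) and ST8 (6.45 to 6.57), so those markers moved with Amot. Their part in the result was not tested.

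On amplified RNA, the ES arrays read 5.52, 5.30 and 4.92 at day 0. At day 5 they read 10.45, 9.50 and 9.42. The difference of 4.54 ± 0.24 (23.3-fold) was the 2nd largest rise of all genes. The amplified groups stood in the order ES day 0, ENDM1 negative, foregut and ES day 5, with means of 5.25 ± 0.31, 7.15 ± 0.30, 8.85 ± 0.0014 and 9.79 ± 0.57 (SD, n = 3) and no overlap. Across all genes, the differences between pairs of foregut arrays had an SD of 0.20 to 0.22. The 0.0014 of Amot is therefore not read as the spread between foregut samples. The amplified ES arrays may be of the same cultures as the unamplified ones, since the deviations of replicate 1 at day 5 correlated at 0.65 across genes between the labellings. Replicates 2 and 3 at day 5 gave 0.45 and 0.29, and differently numbered replicates 2 and 3 gave 0.34. At day 0 the same-numbered values were 0.12, 0.08 and -0.04. Shared cultures are thus possible but not established. The ES difference on amplified RNA is therefore given without a test.

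**Figure D1:**
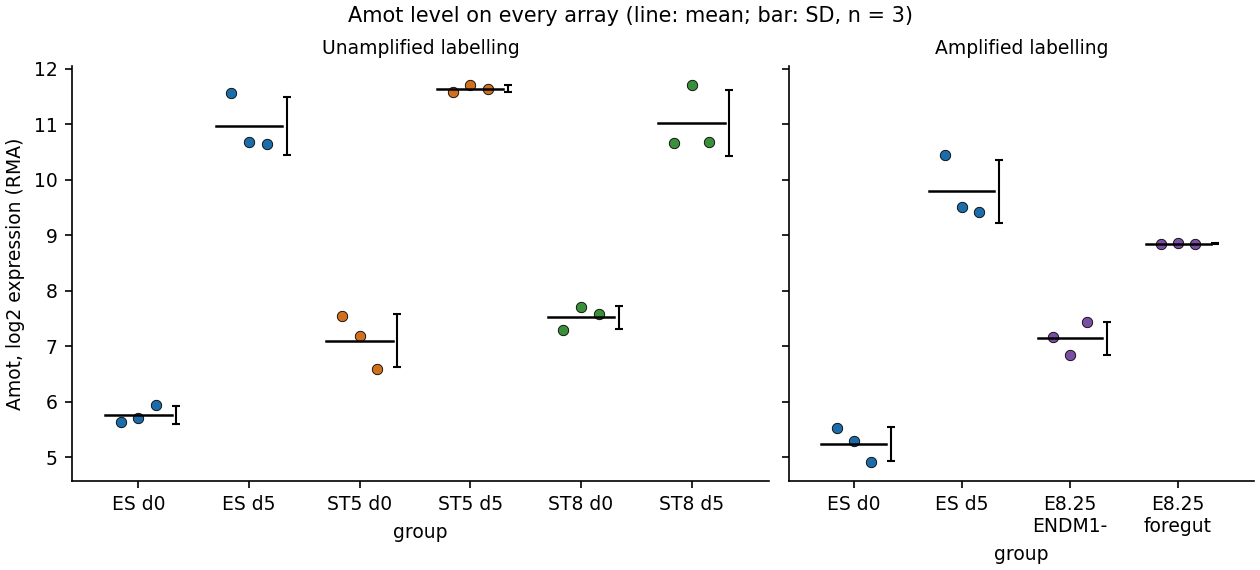
Amot log2 expression on each of the 30 arrays by group, with unamplified and amplified labelling shown apart; points are arrays, the line is the mean and the bar the SD (n = 3). All 9 unamplified day 5 arrays lie between 10.65 and 11.70, above the day 0 arrays at 5.63 to 7.70, and the foregut arrays at 8.85 lie between ENDM1 negative cells and ES cells at day 5.

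Within day 5, Amot took values near 11.6 or near 10.7, and the arrays of a group did not all fall at the same level. It read 11.57 to 11.70 on 5 arrays: the 3 ST5 arrays, ES replicate 1 and ST8 replicate 2. There the definitive endoderm list averaged 9.44 to 9.58. On the other 4 arrays Amot read 10.65 to 10.68 and the endoderm list averaged 8.18 to 8.33. The pluripotency list was at 7.29 to 7.41 on those 4 arrays and lower on the others. These are values of single arrays; the part of the endoderm and pluripotency markers in the Amot level was not tested.

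**Figure D2:**
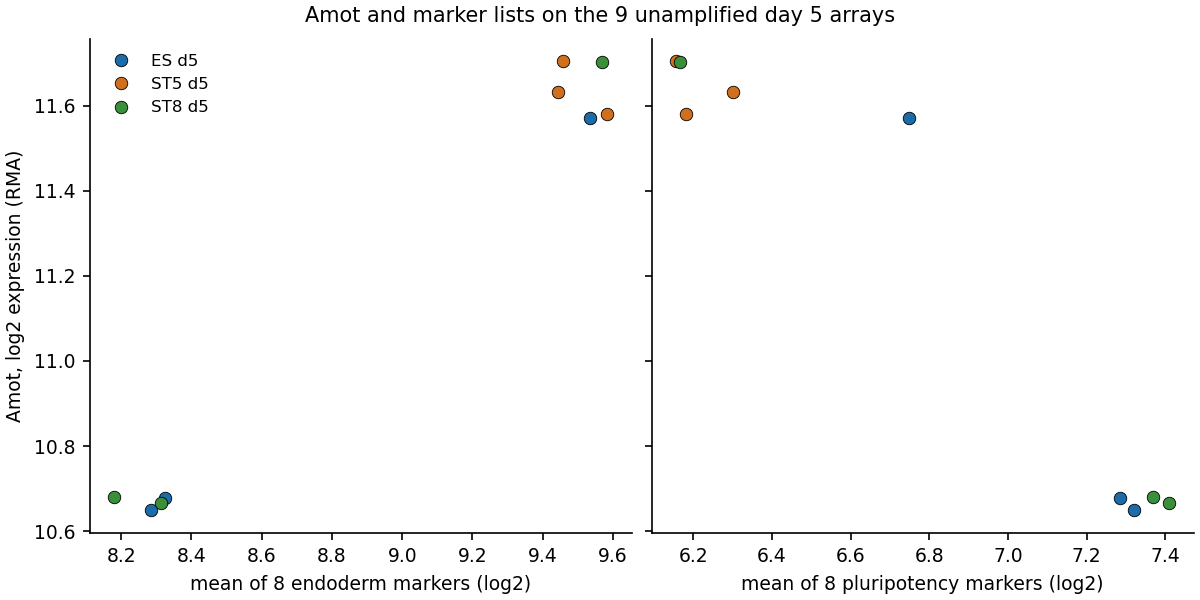
Amot log2 expression (vertical) against the mean log2 value of 8 definitive endoderm markers (left) and of 8 pluripotency markers (right) on the 9 unamplified day 5 arrays, coloured by line. ES replicate 1 and ST8 replicate 2 lie with the 3 ST5 arrays at 11.57 to 11.70, and the other 4 arrays lie at 10.65 to 10.68.

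The genes whose pattern was most like that of Amot over the 18 unamplified arrays were Cxcr4 (Pearson r = 0.996), a chemokine receptor used as an endoderm marker, and Cer1 (0.993), a secreted Nodal and BMP inhibitor. Dgkk (0.993), a diacylglycerol kinase, Bmp2 (0.992), a secreted growth factor, and Egflam (0.992), a matrix protein, followed. Over the 12 amplified arrays they were Tcf7l2 (0.995), a Wnt effector, Dgkk (0.985), Baz2b (0.983), Pdcd4 (0.982) and Lmbrd1 (0.981). These correlations are a description: the arrays fall into separate clusters by day and cell type, and those within a labelling share their processing. At day 0 Cxcr4 averaged 6.21 ± 0.11 on the ES arrays, 7.30 ± 0.38 on those of ST5 and 7.70 ± 0.19 on those of ST8. At day 5 it averaged 10.54 ± 0.71, 11.38 ± 0.03 and 10.51 ± 0.74 in the same order (SD, n = 3), so its groups stood in nearly the same order as those of Amot.

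Of the 10 genes, ST5 had 5 called higher at day 5, 1 lower and 4 not called, where 47.9% of all genes were called (23.2% higher, 24.8% lower). ST8 had 5 higher, 2 lower and 3 not called, where 40.5% of all genes were called (21% higher, 19.5% lower). Shifting the arrays to a common median moved the share of rises among all ST8 calls from 51.7% to 40.6%. With 10 genes these counts are not read as particular to the pathway. The median over the 9 other genes was 0.11 in ST5 and 0.19 in ST8, against -0.04 and -0.01 over all genes. Without ST8 replicate 2 at day 5, 8 of the 10 genes were called in ST8, and without ST8 replicate 3 at day 5, 5 were. Leaving out 1 array at a time, 7114 to 7761 of all genes were called in ST8.

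The relatives of Amot behaved unlike each other. Amotl1 (9:14541966-14662974), a junctional angiomotin, read 6.69, 6.54 and 6.69 in ST5 at day 0. It read 7.92, 8.16 and 7.97 at day 5. In ST8 it went from 6.61, 6.67 and 6.55 to 7.70, 7.82 and 7.61. All day 5 arrays lay above all day 0 arrays, and Amotl1 rose by 1.38 ± 0.09 in ST5 (limma adjusted p = 4.38e-09) and by 1.10 ± 0.09 in ST8 (limma adjusted p = 7.68e-08). In ES cells it went from 6.81, 6.83 and 7.0 to 7.84, 7.60 and 7.55, a difference of 0.78 ± 0.09. On amplified RNA the ES difference was 0.39 ± 0.14.

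Amotl2 (9:102717091-102733418), an angiomotin that is also a known Yap1 target, read 8.11, 8.06 and 8.15 in ST5 at day 0 and 7.98, 8.03 and 8.14 at day 5. ST8 read 8.19, 8.34 and 8.10, then 8.38, 8.15 and 8.51. The days overlapped in both clones, and neither difference was called (-0.06, 95% interval -0.26 to 0.14 in ST5, and 0.14, interval -0.07 to 0.34 in ST8). ES cells read 8.59, 8.53 and 8.70 at day 0 and 8.2526, 8.53 and 8.43 at day 5. At day 0, Amotl2 was thus highest in ES cells, where Amot was lowest.

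Lats2 (14:57689662-57746212), the kinase that phosphorylates Yap1, had a narrow range of 6.10 to 6.51 over all 18 unamplified arrays. It differed by -0.23 ± 0.10 in ST5 (limma adjusted p = 0.0601), by -0.17 ± 0.10 in ST8 (limma adjusted p = 0.18) and by 0.02 ± 0.10 in ES cells. After a further quantile normalization Lats2 was called lower in both clones (-0.28 in ST5 and -0.26 in ST8, limma adjusted p = 0.0198 and 0.0318). It was also called in ST8 with a common median (-0.24, adjusted p = 0.0461). In ST5 it was called in a fit of the ST5 groups alone and with dim genes left out (adjusted p = 0.0237 and 0.0389).

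Yap1 (9:7931999-8004638) lay between 8.76 and 9.21 on all 18 unamplified arrays. In ST5 it read 8.96, 8.87 and 8.82 at day 0, then 9.17, 9.13 and 9.10. In ST8 it read 8.90, 8.90 and 8.91, then 9.07, 9.02 and 9.19. The days did not overlap in either clone, and Yap1 rose slightly, by 0.25 ± 0.06 in ST5 (limma adjusted p = 0.0031) and by 0.19 ± 0.06 in ST8 (limma adjusted p = 0.0212). ES cells read 8.91, 8.76 and 8.89, then 9.15, 9.21 and 9.15, a difference of 0.31 ± 0.06. The ST8 call was lost with a common median (difference 0.12, limma adjusted p = 0.151), in a fit of the ST8 groups alone (adjusted p = 0.0794), and without replicate 1 or 2 at day 0 or replicate 3 at day 5 (adjusted p = 0.0532 to 0.11).

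Wwtr1 (3:57455644-57575910), the paralog of Yap1, had differences of opposite sign in the clones. In ST5 it read 7.61, 7.64 and 7.54 at day 0, then 7.24, 7.36 and 7.23. In ST8 it read 7.49, 7.61 and 7.58, then 7.99, 7.49 and 8.06. All ST5 arrays were lower at day 5, while in ST8 2 arrays were higher and replicate 2 was not. Wwtr1 fell by 0.32 ± 0.11 in ST5 (limma adjusted p = 0.0232), a call lost without replicate 1 or 2 at day 0 or replicate 1 or 3 at day 5 (adjusted p = 0.0535 to 0.0692). In ST8 the difference was 0.28 ± 0.11 (limma adjusted p = 0.0537), and 0.46 (limma adjusted p = 0.000107) without replicate 2 at day 5. It was also called in ST8 in a fit of all 30 arrays, after leaving out dim genes, and when the spread was fitted robustly along intensity (adjusted p = 0.0354 to 0.0450). ES cells read 7.65, 7.59 and 7.72, then 7.63, 7.78 and 7.80, a difference of 0.08 ± 0.11.

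**Figure D3:**
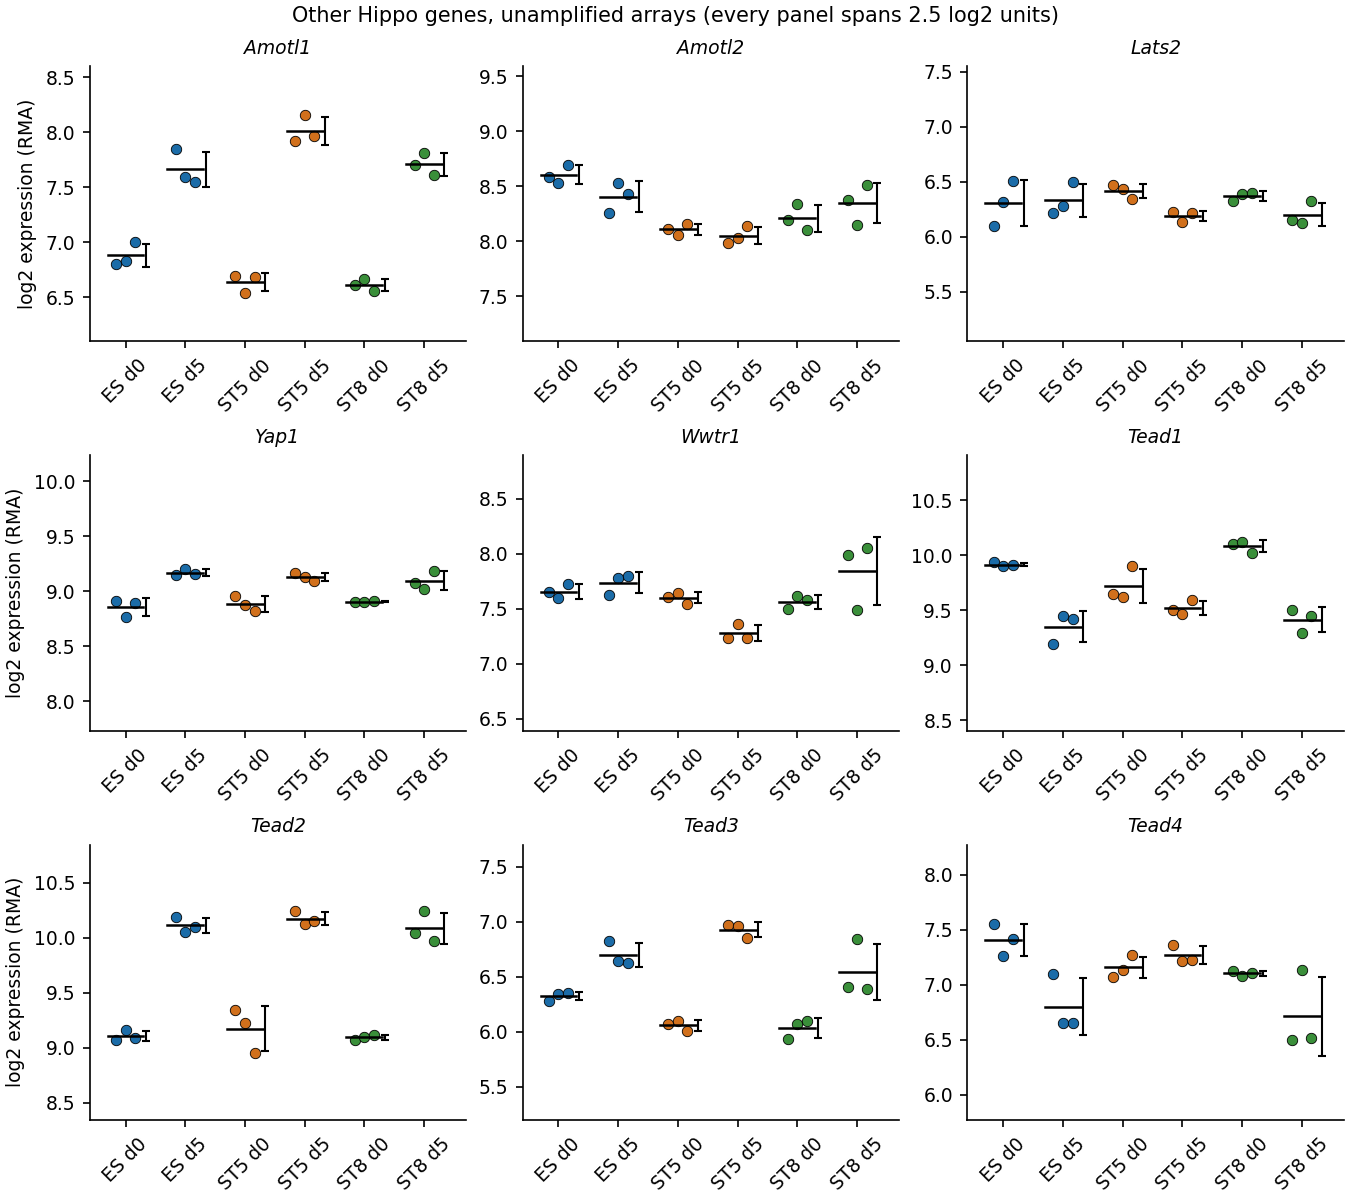
Log2 expression (vertical) of the 9 genes other than Amot on the 18 unamplified arrays, by line and day; points are arrays, the line is the mean and the bar the SD (n = 3), and every panel spans 2.5 units. Amotl1, Tead2 and Tead3 are higher at day 5 on every array of each line, while Lats2 stays between 6.10 and 6.51.

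The Tead factors, which carry Yap1 and Wwtr1 to DNA, split by member. Tead2 (7:45215792-45233468), known from the early embryo, read 9.34, 9.22 and 8.95 in ST5 at day 0, then 10.24, 10.13 and 10.15. In ST8 it read 9.07, 9.10 and 9.12, then 10.04, 10.24 and 9.97. In ES cells it read 9.07, 9.16 and 9.09, then 10.19, 10.06 and 10.10. Every day 5 array lay above every day 0 array. Tead2 rose by 1.0 ± 0.09 in ST5 (limma adjusted p = 1.28e-07) and by 0.99 ± 0.09 in ST8 (limma adjusted p = 2.17e-07). Its ES difference was 1.01 ± 0.09, and 0.97 ± 0.13 on amplified RNA, so it was nearly the same size in each line.

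Tead3 (17:28331671-28350805) read 6.07, 6.09 and 6.00 in ST5 at day 0, then 6.97, 6.96 and 6.85. In ST8 it read 5.93, 6.07 and 6.10, then 6.40, 6.84 and 6.39. The days did not overlap, and ST8 replicate 2 was the highest ST8 array. Tead3 rose by 0.87 ± 0.10 in ST5 (limma adjusted p = 1.76e-06) and by 0.51 ± 0.10 in ST8 (limma adjusted p = 0.000526). ES cells read 6.28, 6.35 and 6.35, then 6.82, 6.64 and 6.62, a difference of 0.37 ± 0.10.

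Tead1 (7:112679356-112906784) went the other way. In ST8 it read 10.11, 10.12 and 10.03 at day 0, then 9.51, 9.29 and 9.45. In ST5 it read 9.65, 9.63 and 9.90, then 9.50, 9.47 and 9.60. The days did not overlap in either clone. It fell by 0.67 ± 0.09 in ST8 (limma adjusted p = 8.61e-06), and the ST5 difference of -0.20 ± 0.09 was not called (limma adjusted p = 0.0626). ES cells read 9.94, 9.90 and 9.91, then 9.19, 9.45 and 9.42, a difference of -0.56 ± 0.09. A different Tead1 probe set, with a lower mean, went from 8.88 ± 0.09 to 8.12 ± 0.11 in ST8 and from 8.50 ± 0.15 to 8.20 ± 0.08 in ST5 (SD, n = 3). With that probe set the ST5 difference was called (-0.30, limma adjusted p = 0.0107), as it was with the mean of the probe sets (-0.25, adjusted p = 0.0203). It was also called without ST5 day 0 replicate 2 (-0.25, adjusted p = 0.0405), after leaving out dim genes, and when the spread was fitted robustly along intensity (adjusted p = 0.0383 and 0.0392).

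Tead4 (6:128227143-128300813), the trophectoderm factor, read 7.13, 7.08 and 7.11 in ST8 at day 0. At day 5 it read 6.50, 7.13 and 6.52. ST8 replicate 2 stayed at the day 0 level while the other ST8 arrays lay below it. Tead4 fell by 0.39 ± 0.15 in ST8 (limma adjusted p = 0.0437), and the value was -0.60 (limma adjusted p = 0.000625) without replicate 2. The call was lost without any other ST8 array in turn (adjusted p = 0.0793 to 0.185) and in a fit of the ST8 groups alone (adjusted p = 0.124). In ST5 it read 7.07, 7.13 and 7.26, then 7.36, 7.21 and 7.22, and the difference of 0.11 ± 0.15 was not called (95% interval -0.20 to 0.42). ES cells read 7.55, 7.26 and 7.41, then 7.10, 6.65 and 6.65, a difference of -0.61 ± 0.15.

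On amplified ES RNA the day 5 minus day 0 differences of the remaining genes were 0.22 for Tead3, 0.09 for Yap1 and 0.07 for Wwtr1. They were -0.70 for Tead4, -0.33 for Tead1, -0.20 for Amotl2 and -0.11 for Lats2 (log2). With the other Tead1 probe set its amplified difference was -0.60. Of these, Lats2 had another sign than on unamplified arrays, with both values near 0.

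**Figure D4:**
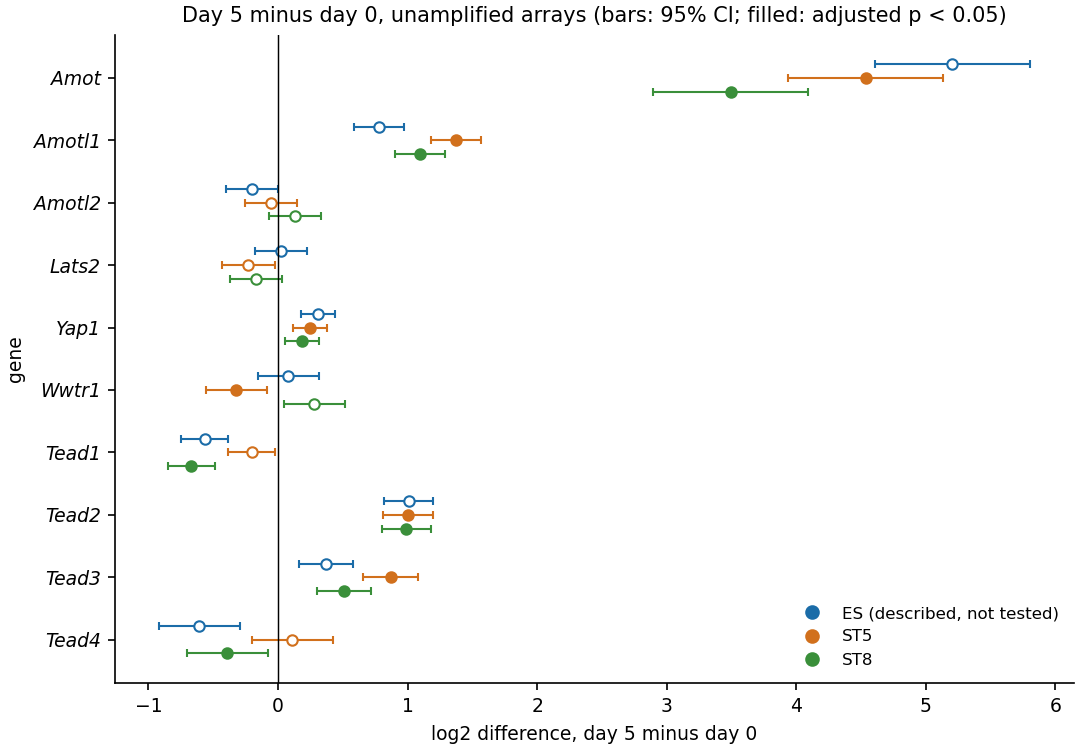
Day 5 minus day 0 difference in log2 expression (horizontal) for each of the 10 genes in ES cells (a description), ST5 and ST8; bars are the 95% confidence interval of the fit and filled points are called. Amot differs by 3.49 to 5.20, Tead2 by 0.99 to 1.01, and Wwtr1 is below 0 in ST5 and above 0 in ST8.

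The size of the day 5 response was compared between the clones by testing the difference of differences. With all arrays, 0 of the 10 genes were called, where limma called 2.17% of all genes (432 genes). The response of Amot was smaller in ST8 by 1.04 ± 0.40 (limma adjusted p = 0.153), and the 95% interval of the difference ran from -1.89 to -0.19. The nearest to a call were Wwtr1 (0.60 ± 0.16, limma adjusted p = 0.0547) and Tead1 (-0.47 ± 0.12, limma adjusted p = 0.0545). Both were called in a fit of all 30 arrays (adjusted p = 0.0327 and 0.0475), with dim genes left out (0.0311 and 0.0280) and with the spread fitted robustly along intensity (0.0410 and 0.0330). Without ST8 replicate 2 at day 5, 5 of the 10 genes were called, and 3952 of all genes. Amot then differed by -1.39 (limma adjusted p = 0.00930), Wwtr1 by 0.78, Tead4 by -0.71, Tead3 by -0.51 and Tead1 by -0.41. Leaving out ES replicate 1 at day 5 as well, an alternative chosen after seeing the data, added Amotl1 (-0.33), and the adjusted p of Amot was 0.000662.

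Between the clones at day 0, 0 of the 10 genes were called, with 0.0652% of all genes called (13 genes). At day 5, 2 genes were called higher in ST8 than in ST5 and 3 lower, with 14.6% of all genes called (8.29% higher, 6.3% lower). Wwtr1 was higher by 0.57 ± 0.11 (limma adjusted p = 0.00521), its ST8 and ST5 arrays not overlapping, and Amotl2 by 0.29 ± 0.09 (limma adjusted p = 0.0493). Amotl1 was lower by 0.31, Tead3 by 0.38 and Tead4 by 0.55 in ST8 (log2, limma adjusted p = 0.0348, 0.0205 and 0.0227). Amot differed by -0.62 ± 0.28 and was not called (limma adjusted p = 0.151). Without ST8 replicate 2, 6 of the 10 genes were called, Amot among them (-0.97, limma adjusted p = 0.00852), and 5951 of all genes in place of 2909. In a fit of these groups alone 0 of these genes were called, and all but Wwtr1 lost their call without ST8 replicate 1 or 3 or ST5 replicate 2 (adjusted p = 0.0516 to 0.245). Without ST5 replicate 1, Amotl2, Tead3 and Tead4 lost it, and without ST5 replicate 3, Amotl1, Amotl2 and Tead4 did (adjusted p = 0.0564 to 0.148). The definitive endoderm list averaged 9.44 to 9.58 in ST5 and 8.18 to 9.57 in ST8 at day 5, and its part in these differences was not tested.

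Against ES cells at day 0, Amotl2 was the only called gene of the 9 genes other than Amot in each clone, with 3.22% of all genes called in ST5 and 3.55% in ST8. It was lower by 0.50 in ST5 (log2, SE 0.09, limma adjusted p = 0.00695), where all ST5 arrays lay below all ES arrays. In ST8 it was lower by 0.40 (limma adjusted p = 0.0277), a call lost without any single array of either group except ST8 replicate 2 (adjusted p = 0.0551 to 0.129). Tead3 at 5.93 to 6.10 in the clones also lay below ES cells at 6.28 to 6.35, without a call (limma adjusted p = 0.205 in ST5 and 0.134 in ST8).

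At day 5, ST5 differed from ES cells in 4 of the 9 genes, with 23.3% of all genes called. The share of higher genes among those calls was 49.5%, and 73.1% with a common median. Amotl1 was higher by 0.35 ± 0.09 (limma adjusted p = 0.0128) and Tead4 by 0.47 ± 0.15 (limma adjusted p = 0.0323). Wwtr1 at 7.23 to 7.36 was lower than in ES cells at 7.63 to 7.80, and Amotl2 was lower as well (differences -0.46 and -0.35, limma adjusted p = 0.00908 and 0.0156). The Amotl1, Tead4 and Amotl2 calls were each lost without ES replicate 2 or 3 (adjusted p = 0.0612 to 0.139), while that of Wwtr1 was kept. They were also lost without ST5 replicate 2 (Amotl1), replicate 1 (Amotl2) or any ST5 array (Tead4), with adjusted p = 0.0605 to 0.108. ST8 differed from ES cells in 0 of the 9 genes (limma; 0.958% of all genes called), and Amot differed by 0.05 ± 0.28 without a test. Without ST8 replicate 2, Wwtr1 was called higher (0.28, limma adjusted p = 0.0369) and Tead3 lower (-0.30, limma adjusted p = 0.0330), and 1080 of all genes were called in place of 191. Amot then differed by -0.29. With ES replicate 1 left out as well, an alternative chosen after seeing the data, neither call was kept, and 1796 of all genes were called. On the arrays that then remain, Amot read 10.67 and 10.68 in ST8 and 10.68 and 10.65 in ES cells. The clone comparisons with ES cells share the ES arrays. Markers moved with the ST5 comparison at day 5. The pluripotency list averaged 6.16 to 6.30 in ST5 and 6.75 to 7.32 in ES cells, with 4 of 8 called lower. The extraembryonic endoderm list averaged 6.73 to 6.89 and 5.88 to 6.36, with 6 of 12 called higher, and 2 of 8 definitive endoderm markers were called higher. Their part in these differences was not tested.

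Beyond the 10 genes, 51 further genes of the pathway were measured of 55 listed. In ST5, 31 of the 51 were called higher at day 5 (60.8%, against 23.2% of all genes) and 4 lower. In ST8, 27 were called higher (52.9%, against 21%) and 6 lower. Medians were 0.37 in ST5 and 0.28 in ST8, against -0.04 and -0.01 over all genes. The genes called higher in both clones numbered 23, which is 74.2% of the ST5 list and 85.2% of the ST8 list. Over all genes the clones shared 3352 rises, which is 72.5% of those of ST5 and 80.2% of those of ST8. The lists were assembled with earlier results of these data known, so the counts are descriptive. Lists of markers of other cell types moved with the days as well, which does not show that such cells were present. Of 12 extraembryonic endoderm markers, 7 were called higher in ST5 and 4 in ST8. The mean of 9 trophoblast markers was 6.06 to 6.47 on the unamplified day 0 arrays and 6.88 to 7.41 at day 5, with 4 of 9 called higher in ST5 and 5 of 9 in ST8. The part of these markers, and of the fibroblast markers given with the targets, in the pathway counts was not tested.

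Among the largest rises was that of Patj. This scaffold of the Crumbs complex rose by 2.07 ± 0.13 in ST5 and 1.81 ± 0.13 in ST8 (limma adjusted p = 2.24e-09 and 1.34e-08). Its relative Mpdz rose by 1.53 ± 0.09 and 1.24 ± 0.09, and the scaffold Dlg5 by 1.54 ± 0.22 in ST5. Crb2, Pard3 and Tjp1, chosen after their values were seen and known from the Crumbs complex, the Par complex and tight junctions, rose by 1.48, 1.45 and 0.66 in ST5 and by 0.97, 0.98 and 0.49 in ST8. Rassf6, a partner of the Hippo kinases, rose by 1.42 ± 0.12 in ST8.

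The kinase core genes Lats1, Mob1b and Stk4 were named after their values were seen, so their p-values are descriptive. Of other core genes, Sav1 averaged 7.57 at day 0 and 7.43 at day 5 in ST5, and 7.75 and 7.69 in ST8. Mob1a averaged 7.41 and 7.92 in ST5, and 7.32 and 7.53 in ST8. Lats1, which shares its role with Lats2, rose by 1.15 ± 0.09 in ST5 and 0.72 ± 0.09 in ST8 (limma adjusted p = 4.03e-08 and 1.04e-05). Its activator Mob1b rose by 1.16 ± 0.20 in ST5. In ST8, Mob1b differed by 0.53 ± 0.20 (limma adjusted p = 0.0459), and by 0.25 (limma adjusted p = 0.266) without ST8 replicate 2 at day 5. That call was also lost without any ST8 day 0 array (adjusted p = 0.0734 to 0.105), after quantile normalization or with a common median (0.0895 and 0.0911). Stk4, the kinase above the Lats kinases, fell by 0.21 ± 0.07 in ST5 and 0.29 ± 0.07 in ST8 (limma adjusted p = 0.0208 and 0.0037). The ST5 call of Stk4 was lost without day 0 replicate 3 or day 5 replicate 1 (adjusted p = 0.085 and 0.117) and in a fit of all 30 arrays (0.0556). Among the genes that fell were Nf2 (Merlin), which recruits the Lats kinases to the membrane (-0.58 in ST5, -0.50 in ST8), and Vgll3, a Tead cofactor (-1.02 and -1.17). At day 5 Vgll3 averaged 4.87 in ST5 and 4.86 in ST8, below every unamplified array median. Wtip, a LIM protein that restrains Lats kinases, fell by 0.85 in ST5, and Stk38, a kinase related to Lats, fell by 0.69 in ST8.

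Genes known as targets of Yap1 and TAZ, a list that also holds Amotl2 and Lats2, were called in both directions. Of 22 measured, 6 were called higher and 8 lower in ST5 (27.3% and 36.4%), where 23.2% and 24.8% of all genes were. In ST8, 6 were called higher and 6 lower (27.3% each), against 21% and 19.5% of all genes. Medians were -0.14 and -0.04. Tgfb2, a secreted growth factor, rose by 1.80 ± 0.18 in ST5 and 1.19 ± 0.18 in ST8. The kinase Nuak2 rose by 1.79 ± 0.14 and 1.26 ± 0.14, and the Golgi kinase Fjx1, which stands in both lists, by 1.18 ± 0.22 and 0.80 ± 0.22. Without ST8 replicate 2 at day 5, the ST8 value of Fjx1 was 0.51 (limma adjusted p = 0.042). The matrix-associated factor Ccn1, named after its values were seen, also rose (0.85 ± 0.15 and 0.65 ± 0.15). Its relative Ccn2 fell by 1.79 ± 0.39 in ST5 (limma adjusted p = 0.001) and was not called in ST8 (-0.84 ± 0.39, limma adjusted p = 0.0989). Gadd45a, a stress response gene, fell in both clones (-1.70 ± 0.10 and -1.58 ± 0.10), as did the matrix gene Ccdc80 (-1.69 ± 0.22 and -2.56 ± 0.22). The RNA-binding Rbms3 was among the 3 largest falls in ST8 (-0.93 ± 0.11). It averaged 5.54 at day 0 and 4.62 at day 5, the latter below every unamplified array median.

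Several of these targets are also expressed by fibroblasts, and markers of that cell type moved with the days. The mean of 10 fibroblast markers was 7.47 to 7.99 on unamplified day 0 arrays and 5.15 to 5.48 at day 5. All 10 were called lower in ST5 and 9 of 10 in ST8. Their part in the target values was not tested.

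In the embryo, Amot was higher in foregut cells than in the ENDM1 negative cells. The foregut arrays all read 8.85, and the ENDM1 negative arrays read 7.16, 6.84 and 7.44. The groups did not overlap, and Amot was higher by 1.70 ± 0.24 (3.26-fold, limma adjusted p = 0.000919), the 49th largest rise of all genes. Only 3.71% of all genes were called higher and 4.43% lower, 8.14% in all. The share of higher genes among the calls was 45.6%, and 35.6% with a common median. Of the 9 other genes, 0 were called higher and 1 lower.

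That gene was Yap1, at 7.50, 7.48 and 7.46 in foregut against 7.68, 7.78 and 7.72. The arrays did not overlap, and Yap1 was lower by 0.25 in foregut (log2, SE 0.07, limma adjusted p = 0.0474). The call was lost without any single array of these groups (adjusted p = 0.0786 to 0.135), with a further quantile normalization (difference -0.21, adjusted p = 0.122), in a fit of these groups alone (adjusted p = 0.102) and with the spread fitted robustly along intensity (adjusted p = 0.0598). The other 8 genes differed by -0.15 (Tead3) to 0.15 (Lats2), with overlapping arrays. Tead2, for one, read 7.65, 7.60 and 7.92 in foregut and 7.66, 7.44 and 7.90 in the ENDM1 negative cells (difference 0.06, 95% interval -0.23 to 0.34).

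The embryo groups also differed in markers of other cells. The mean of 12 extraembryonic endoderm markers was 7.67 to 8.45 in foregut and 6.28 to 6.72 in ENDM1 negative cells, with 9 of 12 called higher. Endothelial markers averaged 5.19 to 5.26 in foregut and 6.07 to 6.55 in ENDM1 negative cells (6 of 10 called lower), and surface ectoderm markers 5.72 to 5.82 and 6.71 to 7.0 (7 of 10 lower). Trophoblast markers averaged 6.66 to 6.79 and 7.10 to 7.46 (6 of 9 lower). The definitive endoderm list averaged 7.21 to 7.47 in foregut and 6.15 to 6.32 in ENDM1 negative cells. The part of these markers in the Amot and Yap1 differences was not tested.

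Compared with ES cells at day 5 on amplified RNA, foregut had a lower Amot level. Foregut arrays read 8.85 against 10.45, 9.50 and 9.42, a difference of -0.94 ± 0.24 that was not tested, as the ES arrays may be of the cultures that chose the gene. Of the 9 other genes, 4 were called higher in foregut and 0 lower, with 24.2% of all genes called (14.7% higher, 9.42% lower). The share of higher genes among the calls was 61%, and 45.1% with a common median. Lats2 read 6.25, 6.33 and 6.32 in foregut and 5.43, 5.63 and 5.72 in the ES cells, higher by 0.71 ± 0.10 (limma adjusted p = 0.000297). Tead4 read 7.53, 7.51 and 7.39 against 7.02, 6.26 and 6.72, higher by 0.81 ± 0.15 (limma adjusted p = 0.00202). Tead1 was higher by 0.45 ± 0.10 (limma adjusted p = 0.00639), with no overlap.

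Amotl2 was higher in foregut by 0.36 ± 0.11 (limma adjusted p = 0.0264), a call lost with a common median (0.30, adjusted p = 0.0719), in a fit of these groups alone (adjusted p = 0.0644), and without ES replicate 1 or 3 or foregut replicate 3 (adjusted p = 0.0733 to 0.11). Mouse strain, RNA kit, and culture against embryo all differ between these groups and cannot be told apart. The extraembryonic endoderm list averaged 7.67 to 8.45 in foregut and 6.23 to 6.56 in the ES cells, with 10 of 12 called higher. Surface ectoderm markers averaged 5.72 to 5.82 and 5.35 to 5.54, with 5 of 10 called higher. The definitive endoderm list averaged 7.21 to 7.47 in foregut and 7.67 to 8.52 in the ES cells, with 1 of 8 called higher and 3 lower. The pluripotency list averaged 5.58 to 5.90 and 6.73 to 7.26, with 2 of 8 called higher and 3 lower. Their part in these differences was not tested.

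**Figure D5:**
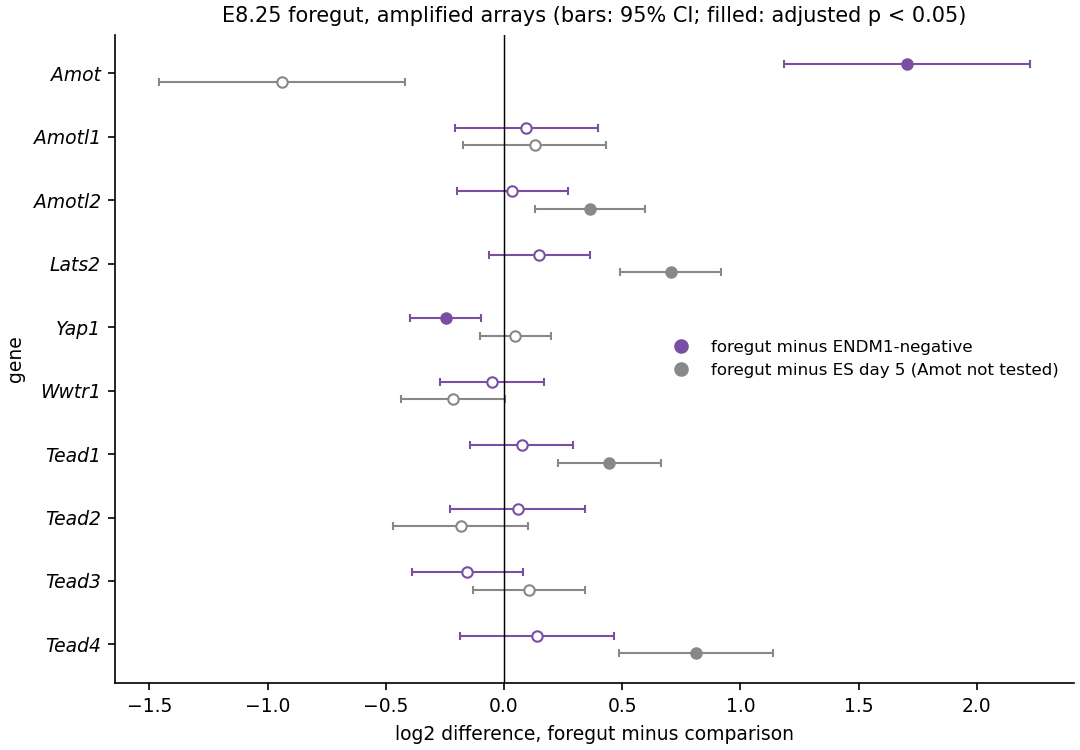
Log2 difference (horizontal) of each of the 10 genes on amplified arrays, foregut minus ENDM1 negative cells in purple and foregut minus ES cells at day 5 in grey; bars are the 95% confidence interval and filled points are called (Amot against ES cells was not tested). Amot lies at 1.70 against ENDM1 negative cells and at -0.94 against ES cells, and Lats2, Tead1 and Tead4 lie above 0 against ES cells.

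Among the further pathway genes, between foregut and ENDM1 negative cells 5 of 51 were called higher and 1 lower (9.8% and 1.96%, against 3.71% and 4.43% of all genes). The count of higher genes was 3 without ENDM1 negative replicate 1 or 2. That of lower genes was 0 without any foregut array, in a fit of these groups alone or with the replicate block, and 2 in a fit of all 30 arrays, with a common median or with the intensity trend. Patj was higher by 0.72 ± 0.11, as was Vgll4, a Tead cofactor that competes with Yap1, by 0.67 ± 0.12. Frmd6, a FERM protein upstream of the kinases, was higher by 0.47 ± 0.10. Vgll1, a further Tead cofactor, was lower by 0.68 ± 0.19 (limma adjusted p = 0.0488), a call lost without ENDM1 negative replicate 1 or 2 or any foregut array (adjusted p = 0.0786 to 0.124). Of the 22 targets, 2 were called higher and 2 lower. The count of higher targets was 1 without ENDM1 negative replicate 2 or any foregut array, after quantile normalization or without dim genes, and that of lower targets was 1 without ENDM1 negative replicate 1 or 2 or foregut replicate 1. Tgfb2 was higher by 1.99 ± 0.15 and Ankrd1, a muscle-type repeat protein, by 0.44 ± 0.11, while Rbms3 and Gadd45a were lower by 0.51 and 0.47 (log2). The levels of Ankrd1 (4.85 in foregut, 4.40 in ENDM1 negative cells) and Vgll1 (5.07 and 5.75) were low. Amplified array medians were 5.69 to 5.74. Tgfb2 kept its call when each array was left out in turn. Ankrd1 lost it without any array but ENDM1 negative replicate 3 (adjusted p = 0.0726 to 0.113), Gadd45a without ENDM1 negative replicate 1 or 2 or foregut replicate 2 (0.0506 to 0.0679), and Rbms3 without ENDM1 negative replicate 3 or foregut replicate 1 (0.0521 and 0.058).

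Against ES cells at day 5, 13 of 51 pathway genes were called higher in foregut and 4 lower (25.5% and 7.84%, against 14.7% and 9.42% of all genes). Vgll4 was higher by 1.14 ± 0.12, Frmd6 by 1.06 ± 0.10 and Llgl2, a polarity gene, by 0.57 ± 0.10. The kinase Taok3 was lower by 0.72, Lats1 by 0.49 and the protocadherin Fat1 by 0.30 (log2). The Fat1 call was lost without ES replicate 1 or foregut replicate 3 (adjusted p = 0.0514 and 0.0644). Of the targets, 6 were called higher and 4 lower (27.3% and 18.2%), and the count of lower targets was 2 without ES replicate 2 or 3. The 6 higher targets include Lats2 and Amotl2, whose differences are given above and are thus counted again here. Ccdc80 was higher by 1.83 ± 0.17 and Ptpn14, a phosphatase that binds Yap1, by 0.55 ± 0.09. Ptpn14 stands in both lists and is counted in each. Myof, a membrane repair gene, was lower by 0.88 and Nuak2 by 0.53 (log2). The secreted Igfbp3 was lower by 1.51 ± 0.41 (limma adjusted p = 0.0184), a call lost without ES replicate 2 or 3 or foregut replicate 2 (adjusted p = 0.0564 to 0.0755).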

How the data were processed

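The deposited values are on a log2 scale, made with RMA according to the submitters' processing notes. Its version, the genome build and whether both labellings were processed together are not given in the sources used here. Of 35556 probe sets, 21789 had a single gene; for 999 genes with several, that with the highest mean over the 30 arrays was kept. Tead1 was the only such gene of the 10. Groups follow the labels. A mean per group was fitted with limma 3.58.1 (R 4.3.3, data.table version 1.17.8) to the 18 unamplified arrays (12 residual degrees of freedom) and to the 12 amplified arrays (8). The fit was tried on simulated data with independent noise and few changed genes. The day 5 comparisons had many changed genes and arrays that stand apart, so that trial does not cover them. Precision is limited by the number of arrays. The ES difference on amplified RNA was to be tested; it is only described, because the arrays may share cultures with those that chose Amot. From each list the text names the 3 genes called with the greatest rise and the 3 with the greatest fall in a comparison; kinase core genes, Crb2, Pard3, Tjp1 and Ccn1 were added after their values were seen. The 10 genes and the lists were chosen with earlier results of these data known. Alternatives were a single fit of all arrays, only the groups compared, quantile normalization, a common median, dim genes left out, other probe-set rules, an intensity trend, a replicate block and leaving out arrays.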

Additional observations from a re-analysis of the deposited data

How the results depend on the processing

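Of 105 tests on the 10 genes, 30 were called. Of these, 14 were lost under at least 1 alternative, 21 others were called under at least 1, and 0 reversed. The tests share arrays, and 0.0652% to 47.9% of all genes were called, depending on the comparison. The pooled count is therefore not read as a result about the genes. The precision is limited by 3 arrays a group. The count of the genes called between the clones' responses was 0, and became 2 in a fit of all 30 arrays, 1 with a common median, 2 with dim genes left out, 2 with an intensity trend and 6 without both arrays that stand apart, an alternative chosen after seeing the data; leaving out 1 array gave 0 to 5. ST8 against ST5 at day 5 went from 5 to 3 (all 30 arrays) and 0 (only these groups), and 1 to 6 leaving out 1 array. ST8 against ES cells at day 0 went from 1 to 4 (only these groups) and 4 (both arrays left out), and 0 to 1 leaving out 1. ST5 against ES cells at day 5 went from 4 to 2 (only these groups), and 1 to 5 leaving out 1. Without both arrays, ST5 against ES cells at day 0 gave 2 and ST8 against ST5 at day 0 gave 1. ST8 against ES cells at day 5 gave 0 to 2 leaving out 1 array. Foregut against ENDM1 negative cells gave 1 in place of 2 with only these groups, quantile normalization, an intensity trend or the replicate block, and 1 leaving out any array. The cause of these changes was not tested.

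Correlations of same-numbered deviations across genes were small between the days of ST5 and ST8 (-0.02 to 0.18) and in the embryo (0.02 to 0.09). Pairing by replicate number was thus not seen in those comparisons, though so few values cannot settle whether the samples were paired. Values were larger for ST8 against ES cells at day 5 (-0.55, -0.65 and 0.50 for replicates 1 to 3). For ST5 against ES cells at day 0 they were -0.18, 0.33 and -0.02. The replicate block called 1 of the 10 genes in the embryo, called Lats2 in ST5 (adjusted p = 0.0424) and lost Tead4 in ST8 (0.0583), Amotl2 between the clones at day 5 (0.0571) and Yap1 in the embryo (0.0740).

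Over all genes, the count called between the responses was 432, and 32 with only these groups, 882 with dim genes left out, 218 with the block and 5042 without both arrays. For ST8 against ST5 it was 13 at day 0 (6, 23, 5 and 94 under the same) and 2909 at day 5 (3 with only these groups, 6625 without both arrays). For ST8 against ES cells it was 707 at day 0 (1719 and 1992) and 191 at day 5 (11 and 1796). Without both arrays, ST5 against ES cells went from 643 to 1560 at day 0 and from 4653 to 7692 at day 5. The embryo count went from 1623 to 2467 in a fit of all 30 arrays. Leaving out 1 array gave 28 to 3952 for the responses, 3 to 21 for the clones at day 0 and 675 to 5951 at day 5. Against ES cells at day 0 it gave 330 to 451 for ST5 and 301 to 409 for ST8. It gave 1928 to 6503 for ST5 and 83 to 1080 for ST8 against ES cells at day 5, and 985 to 1174 in the embryo. A common median moved the share of rises among calls from 48.6% to 23% between the responses and from 56.8% to 36% between the clones at day 5.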
